A study of Homo sapiens with 8 samples.

Results

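Hyaluronan synthesis, breakdown and binding were followed through 10 genes in human breast epithelial cells with and without the RNA-binding protein RBM6. The 10 were taken as the rows of the deposited table whose Ensembl identifier maps to the symbols HAS2, HAS3, CEMIP, CEMIP2, HYAL2, HYAL3, TNFAIP6, PTX3, CD44 and HMMR, 10 of 58233 gene rows in all, and every member passed the filter on low counts in each comparison. The set was chosen by the CEMIP counts of the knockout, which are very low (5 to 24 counts a library, against 258 to 1051 in control libraries). The differences between RBM6-KO1 and control cells are therefore given as a description with no p-value. Nothing is read from the counts of calls between the lines, which stand beside the share of all genes called and in the closing section on processing. Tests of the members are given only for the response to ionizing radiation (IR).

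RNA-seq was made from MCF10A-Hras cells, a non-tumorigenic breast epithelial line carrying an H-Ras oncogene, in 4 groups of 2 biological replicates (A and B). The groups were untreated control cells (genotype WT), control cells 12 h after 5 Gy of X-rays, untreated RBM6-KO cells, and RBM6-KO cells 12 h after 5 Gy. All groups carried H-Ras and were grown in the same medium, with horse serum, EGF, hydrocortisone, cholera toxin and insulin, so every value below refers to cells under those factors. The knockout line, RBM6-KO1, was obtained with a Cas9-D10A nickase and paired guides to exon 3 of RBM6. It is a single line, so a difference between it and the control line cannot be told apart from a difference between clones.

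Hyaluronan is a long, unsulphated sugar polymer of the extracellular matrix. It is extruded through the plasma membrane by the synthases HAS1, HAS2 and HAS3 from UDP-glucuronic acid and UDP-N-acetylglucosamine. It is cut by enzymes of the hyaluronidase family, to which HYAL1, HYAL2 and HYAL3 belong, and by the structurally unrelated protein CEMIP. CEMIP2, a relative of CEMIP, sits in the cell membrane. TNFAIP6 moves protein chains of inter-alpha-inhibitor onto the polymer and PTX3 helps to cross-link the product, while CD44 is the main cell-surface receptor and HMMR, also called RHAMM, is a hyaluronan-binding protein that also associates with the mitotic spindle.

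Upstream sequence is shown for the members whose level differs most between the lines and for the member that IR changed. In the RefSeq promoter table (GRCh38.p14), 9 of the 10 members had an entry, all but HAS2. The 250 bases before the start were searched on both strands for 4 motifs: the cell cycle homology region (CHR, TTTGAA), a repressive element of mitotic genes, the CCAAT box (CCAAT), the AP-1 site (TGANTCA) and TATAAA, the TATA box. Capitals below mark full matches, and each sequence runs 5′ to 3′ on the plus strand, which is the coding strand of all 4 genes.
TNFAIP6: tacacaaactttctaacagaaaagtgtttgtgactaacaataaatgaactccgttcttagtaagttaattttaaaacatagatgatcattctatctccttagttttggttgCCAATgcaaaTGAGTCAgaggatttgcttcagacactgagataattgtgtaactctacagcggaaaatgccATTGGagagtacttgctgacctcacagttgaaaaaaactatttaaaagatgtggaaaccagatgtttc
PTX3: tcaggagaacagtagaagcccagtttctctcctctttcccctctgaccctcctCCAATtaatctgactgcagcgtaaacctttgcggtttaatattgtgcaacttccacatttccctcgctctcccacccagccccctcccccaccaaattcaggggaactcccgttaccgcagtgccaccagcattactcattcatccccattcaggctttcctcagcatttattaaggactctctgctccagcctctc
CEMIP: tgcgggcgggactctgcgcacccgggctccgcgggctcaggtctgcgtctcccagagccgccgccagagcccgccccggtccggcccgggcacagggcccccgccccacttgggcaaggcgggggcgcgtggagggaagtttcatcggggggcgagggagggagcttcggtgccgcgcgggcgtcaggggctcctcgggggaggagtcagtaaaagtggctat
HMMR: gtggggagaTTTGAATTTGAAaccggtagg
The TNFAIP6 window is chr2:151357342-151357591 and the PTX3 window is chr3:157436600-157436849. The CEMIP window is chr15:80779120-80779342, which ends at base -28 from the RefSeq start because the annotation places an untranslated exon from there on. The HMMR stretch of 30 bases is chr5:163460595-163460624, and it was kept short since all of HMMR's window lies in an annotated untranslated exon of a longer transcript.

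The HMMR stretch holds 2 adjoining TTTGAA matches, from -28 to -23 and from -22 to -17. At least 2 such matches occur in 1.72% of the 35116 windows in the table and at least 1 in 13.3%. HMMR's full window also holds 5 CCAAT matches, 2 of which overlap each other, where 9.53% of windows hold 2 or more. The TNFAIP6 window holds 1 AP-1 match (TGAGTCA, from -129 to -123), a motif found in 6.57% of windows, and 2 CCAAT matches. PTX3 has 1 CCAAT match (from -197 to -193), a motif found in 32.0% of windows, and CEMIP has TATAAA from -30 to -25, found in 10.7% of windows. Such matches are descriptions of these letters and were not tied to binding in these cells.

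Each library held between 15355281 and 29832009 counts on genes, and 3 counts correspond to 0.0966 to 0.204 normalized CPM (CPM, counts per 1000000, scaled by TMM over the 8 libraries). Replicates of a group correlated across genes at 0.988 to 0.991 and differed by more than sampling noise. RBM6 itself was at 66.9 and 68.8 normalized CPM in untreated control libraries and 61.5 and 63.2 in untreated RBM6-KO1 libraries, and at 54.5 and 48.9 against 44.01 and 33.9 after IR. Its messenger RNA thus remained present in the knockout libraries, and counts over the whole gene do not show the edit in exon 3. The 8 basal epithelial markers summed to 7384 to 11711 normalized CPM, most of it LAMB3, at group means of 5507 to 8531. KRT5 had group means of 1073 to 1496 and KRT14 of 28.4 to 91.8. Between the lines, the log2 differences of these markers lay below 0 for 4 of 8 untreated and 6 of 8 after IR. The 5 immune markers summed to 2.04 to 7.25, with PTPRC and CD3E below 3 counts in every library. Most of this was CSF1R, at group means of 2.50 to 5.94. The 4 endothelial markers summed to 3.94 to 11.2. Of these, KDR was lower in RBM6-KO1 than in control libraries without overlap (log2 -3.98, SE 0.60, untreated and -3.41, SE 0.49, after IR). PECAM1 was higher without overlap (log2 1.16, SE 0.36, and 1.56, SE 0.32).

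Levels can be compared between genes once divided by exon length (CPM per kb). On that scale CD44 was the highest member in every library, from 30.3 to 60.0 CPM per kb. HYAL2 was the highest of the breakdown genes throughout, at 6.66 to 9.36 CPM per kb, and HAS3 made up 82.4% to 94.6% of the summed level of HAS2 and HAS3. HAS2 was low, at 0.164 to 0.462 CPM per kb. TNFAIP6 ranged from 3.78 to 24.9 and HMMR from 3.79 to 12.2 CPM per kb, and the plot of the members by library shows all values on the normalized CPM scale.

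**Figure D1:**
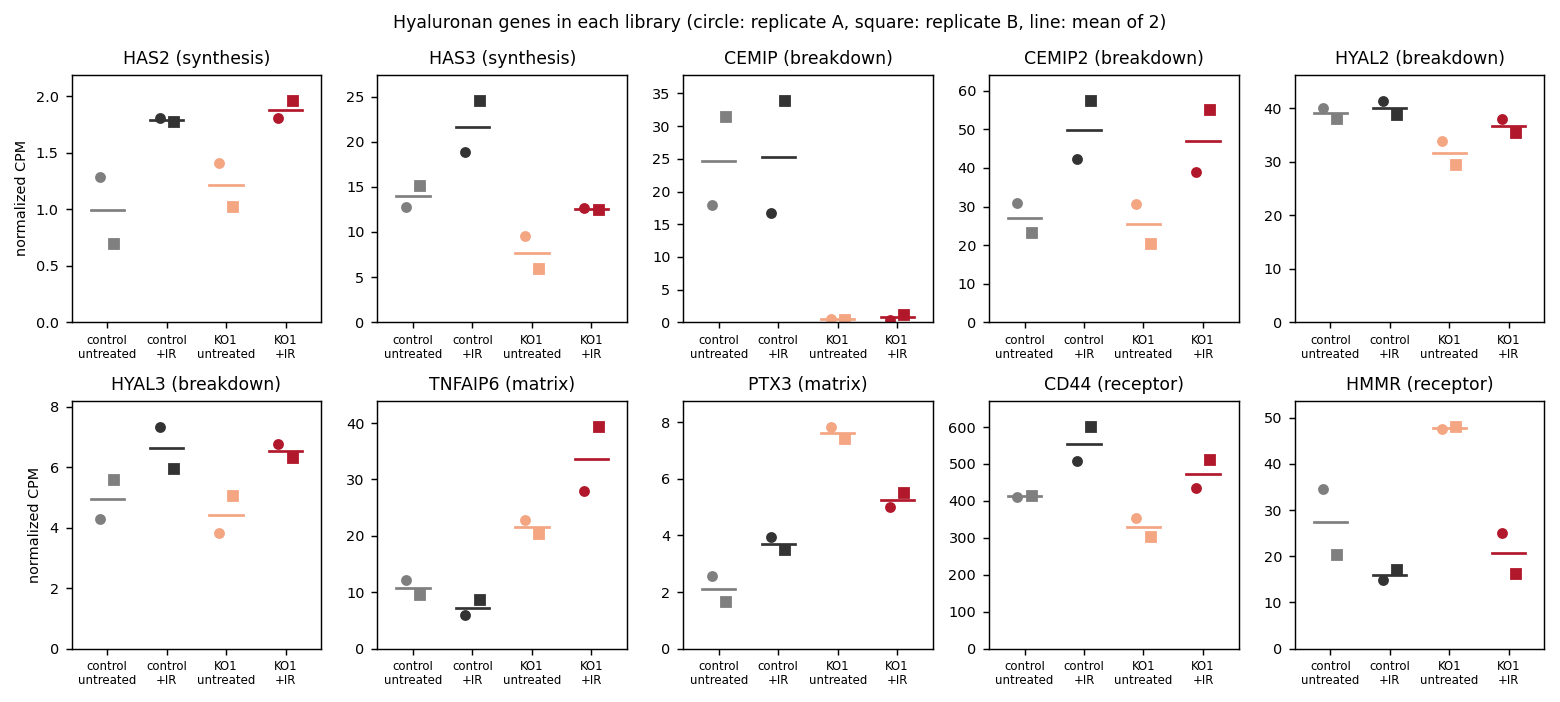
Normalized CPM (linear axis from 0) of each of the 10 genes in the 8 libraries, by group, with a circle for replicate A, a square for replicate B and a line at the mean of 2. CEMIP lies near 0 in the 4 RBM6-KO1 libraries, TNFAIP6 is higher in every RBM6-KO1 library than in any control library, and the HMMR libraries after IR lie below the untreated ones in both lines.

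Of the synthases among the 10 genes, HAS3 stood lower in RBM6-KO1 than in control cells and HAS2 overlapped between them. Gene coordinates are those of GENCODE on GRCh38. HAS3 (ENSG00000103044, chromosome 16, 69105653 to 69118719, plus strand) was at 12.8 and 15.1 normalized CPM in untreated control libraries and at 9.51 and 5.85 in untreated RBM6-KO1 libraries. After IR it was at 18.8 and 24.5 in control cells and at 12.7 and 12.4 in RBM6-KO1 cells. The knockout libraries were below the control libraries in both conditions, with a log2 difference of -0.86 (SE 0.25) untreated and -0.78 (SE 0.22) after IR. HAS3 shares 7.02% of its exon bases with CHTF8 on the opposite strand.

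HAS2 (ENSG00000170961, chromosome 8, minus strand) was measured with few counts. It was at 1.29 and 0.697 normalized CPM in untreated control libraries, 1.41 and 1.02 in untreated RBM6-KO1 libraries, 1.81 and 1.77 in irradiated control libraries, and 1.81 and 1.96 in irradiated RBM6-KO1 libraries. The lines overlapped in both conditions, with log2 differences of 0.30 (SE 0.49) and 0.08 (SE 0.32). HAS2 shares 5.92% of its exon bases with HAS2-AS1 on the opposite strand.

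CEMIP (ENSG00000103888, chromosome 15, 80779343 to 80951776, plus strand) showed the greatest difference of the 10 genes in both conditions. It had 292 and 584 counts in untreated control libraries, 258 and 1051 in irradiated control libraries, 10 and 5 in untreated RBM6-KO1 libraries, and 7 and 24 in irradiated RBM6-KO1 libraries. As normalized CPM these were 17.9 and 31.3, 16.7 and 33.8, 0.563 and 0.340, and 0.361 and 1.18, in the same order. All 4 knockout libraries were far below all 4 control libraries, although every one stood above the level of 3 counts. The fitted difference was 53.1-fold lower untreated (log2 -5.73, SE 0.37) and 32.5-fold lower after IR (log2 -5.02, SE 0.55). Among all genes tested it ranked 19 from the lowest of 15556 untreated and 28 from the lowest of 15587 after IR. Within each control group the 2 replicates also differed, with replicate B the higher. CEMIP shares 2.94% of its exon bases with MESD and 0.932% with ENSG00000259546, both on the opposite strand. Strandedness is not given, so the few knockout counts may include reads of these genes, which was not tested.

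CEMIP2 (ENSG00000135048, chromosome 9, 71683366 to 71816690, minus strand), the membrane-bound relative, did not follow CEMIP. It was at 30.9 and 23.1 normalized CPM in untreated control libraries and 30.6 and 20.3 in untreated RBM6-KO1 libraries, and at 42.4 and 57.3 against 39.0 and 55.0 after IR. The ranges of the lines overlapped in both conditions, with log2 differences of -0.09 (SE 0.22) and -0.08 (SE 0.24).

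HYAL2 (ENSG00000068001, chromosome 3, 50317790 to 50322782, minus strand), a hyaluronidase anchored to the cell surface, was at 40.1 and 37.98 normalized CPM in untreated control libraries and 33.8 and 29.5 in untreated RBM6-KO1 libraries. After IR it was at 41.4 and 38.8 against 38.03 and 35.5. The knockout libraries lay below the controls in both conditions, by little (log2 -0.31, SE 0.17, and -0.12, SE 0.17). HYAL3 (ENSG00000186792, chromosome 3, 50292831 to 50299405, minus strand) was at 4.30 and 5.58 in untreated control libraries, 3.83 and 5.03 in untreated RBM6-KO1 libraries, 7.32 and 5.96 in irradiated control libraries and 6.76 and 6.32 in irradiated RBM6-KO1 libraries. Its ranges overlapped between the lines (log2 -0.18, SE 0.28, and -0.01, SE 0.24).

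Both hyaluronidase genes lie close to the edited gene, with their nearer ends 192786 (HYAL3) and 217745 (HYAL2) bases beyond the end of RBM6. Of the 20 genes listed for this stretch of chromosome 3, RBM6 and both hyaluronidases included, 17 were tested untreated and 16 after IR. None was called between the lines, where 3.12% of all genes were untreated and 1.17% after IR. None was called by IR either, where 3.59% were in control and 3.11% in RBM6-KO1 cells. With shares this small, nothing is read from the lack of calls. The log2 differences between the lines lay below 0 for 12 of 17 untreated and 8 of 16 after IR. The median of these differences was -0.17 untreated and -0.00044 after IR, against 0.01 and 0.02 over all genes. ZMYND10 was the 1 gene of the list that differed 2-fold with no overlap, untreated, at 0.737 and 0.697 normalized CPM in control and 0.113 and 0.136 in RBM6-KO1 cells, the latter at or below 3 counts. HYAL2 shares 11.5% of its exon bases with TUSC2 and HYAL3 shares 11.8% with NAA80, both on the same strand, so part of their counts could be split between neighbours by the counting.

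In composition, CEMIP made up 11.04% to 22.8% of the summed CPM per kb of the 4 breakdown genes in control libraries and 0.291% to 0.890% in RBM6-KO1 libraries. HYAL2 held 39.1% to 53.5% of that sum in control and 46.3% to 58.9% in RBM6-KO1 libraries. The sum itself was 17.0 and 18.0 CPM per kb in untreated control libraries and 13.0 and 11.5 in untreated RBM6-KO1 libraries, and 19.9 and 22.4 against 16.3 and 17.3 after IR. The ranges of the sum did not overlap between the lines in either condition. Since the sum contains CEMIP, whose low knockout counts chose the set, nothing is read from this gap. The sum of HAS2 and HAS3 was likewise lower in the knockout libraries. It was at 2.16 and 1.37 against 2.76 and 3.07 CPM per kb untreated. After IR it was at 2.87 and 2.85 against 4.05 and 5.13. HAS1, which is outside this sum, was higher in the knockout libraries without overlap (log2 0.53, SE 0.31, untreated and 0.87, SE 0.29, after IR).

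**Figure D2:**
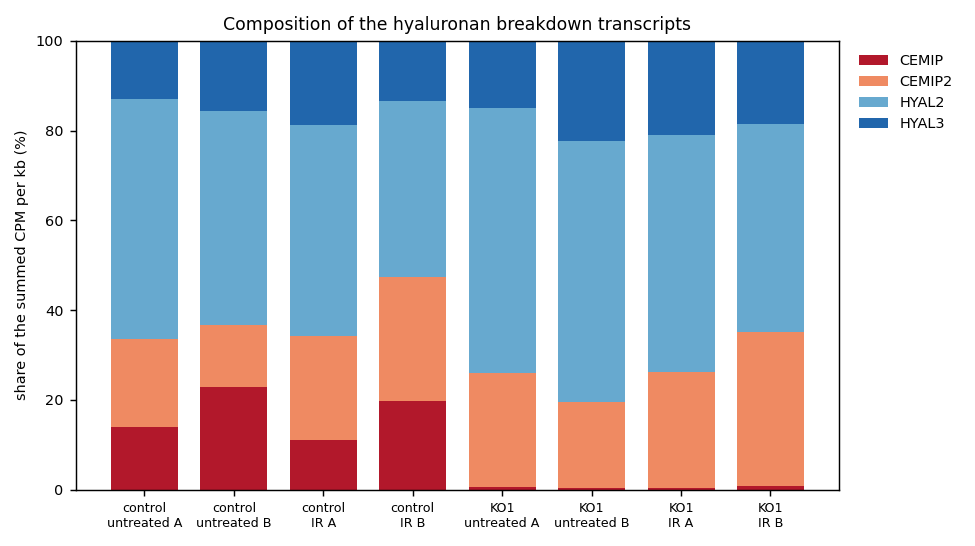
Share (%) of each of the 4 breakdown genes in their summed CPM per kb, 1 bar per library, with replicates A and B of each group side by side. CEMIP takes 11.04% to 22.8% of the sum in control libraries and under 1 percent in RBM6-KO1 libraries, where HYAL2 remains the largest share.

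The matrix genes among the members, TNFAIP6 and PTX3, stood higher in RBM6-KO1 cells. TNFAIP6 (ENSG00000123610, chromosome 2, 151357592 to 151380046, plus strand) was at 12.2 and 9.44 normalized CPM in untreated control libraries and 22.7 and 20.3 in untreated RBM6-KO1 libraries. After IR it was at 5.96 and 8.56 in control cells and 27.9 and 39.2 in RBM6-KO1 cells. All 4 knockout libraries were above all 4 control libraries, and the log2 difference was 0.98 (SE 0.21) untreated and 2.20 (SE 0.28) after IR. PTX3 (ENSG00000163661, chromosome 3, 157436850 to 157443633, plus strand) was at 2.58 and 1.66 in untreated control libraries and 7.82 and 7.42 in untreated RBM6-KO1 libraries. After IR it was at 3.95 and 3.48 in control cells and 5.01 and 5.49 in RBM6-KO1 cells. The knockout libraries were again the higher in both conditions, with a log2 difference of 1.84 (SE 0.30) untreated and 0.51 (SE 0.25) after IR.

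TNFAIP6 and PTX3 are also expressed by fibroblasts, and the fibroblast markers did not move together between the lines. Of 6 such markers, 2 were tested untreated and 3 after IR, and COL1A2 and COL3A1 were below 3 counts in every library. Their summed level was 81.0 to 81.6 normalized CPM in untreated control, 91.1 to 108 in control after IR, 119 to 155 in untreated RBM6-KO1 and 173 to 211 in irradiated RBM6-KO1 libraries. Most of this was decorin (DCN), at 66.6 to 94.2 in control and 112 to 204 in RBM6-KO1 libraries. The collagen gene COL1A1 differed the other way, by a log2 difference of -0.74 untreated and -1.17 after IR, where it stood at 11.6 and 12.1 normalized CPM in control and 5.06 and 5.44 in RBM6-KO1 libraries. PDGFRB was tested only after IR, with a log2 difference of -0.70 (SE 0.43). The 4 pan-epithelial markers summed to 498 to 775 in control and 376 to 563 in RBM6-KO1 libraries, and EPCAM was at 19.6 to 26.7 in control and 5.29 to 7.48 in RBM6-KO1 libraries. The part of these markers in the members' values was not tested, and in bulk samples fewer cells of a type and less RNA per cell cannot be told apart.

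The receptors differed less. CD44 (ENSG00000026508, chromosome 11, 35138882 to 35232402, plus strand) was at 412 and 413 normalized CPM in untreated control libraries and 354 and 303 in untreated RBM6-KO1 libraries, and at 509 and 599 against 435 and 511 after IR. It was lower in the knockout without overlap only untreated (log2 -0.34, SE 0.14), and the ranges met after IR (log2 -0.22, SE 0.17). HMMR (ENSG00000072571, chromosome 5, 163460203 to 163491941, plus strand) was at 34.6 and 20.2 in untreated control libraries and 47.5 and 47.9 in untreated RBM6-KO1 libraries. After IR it was at 14.9 and 16.9 against 25.1 and 16.2. HMMR was thus higher in the knockout without overlap untreated (log2 0.79, SE 0.21) and overlapped after IR (log2 0.38, SE 0.26).

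Counted together, 2 of the 10 genes met the call (a change of 2-fold or more whose adjusted p is under 0.05) between untreated lines, CEMIP lower and PTX3 higher, where 3.12% of 15556 genes did. After IR, 2 of 10 met it, CEMIP lower and TNFAIP6 higher, where 1.17% of 15587 genes did. The libraries of the 2 lines did not overlap for 7 of 10 genes untreated (47.7% of all genes) and for 5 of 10 after IR (38.7%). Since the knockout was used to choose the set, nothing is read from these counts. The median log2 difference of the 10 was -0.14 untreated and -0.04 after IR, against 0.01 and 0.02 over all genes.

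**Figure D3:**
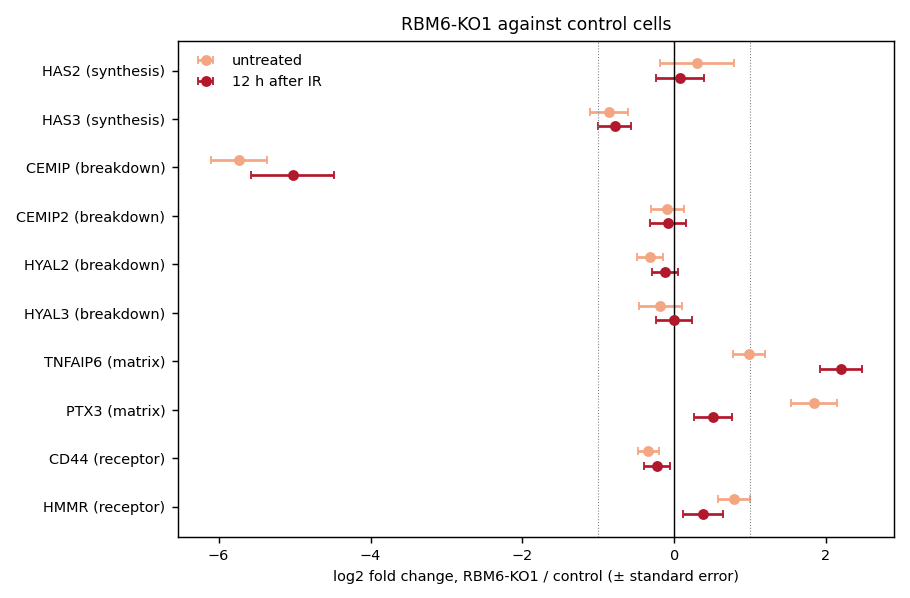
Log2 fold change of RBM6-KO1 over control cells (x axis, with standard error bars) for each of the 10 genes, untreated and 12 h after IR, from 2 libraries a group, with dotted lines at a 2-fold change. CEMIP lies at -5.73 and -5.02, TNFAIP6 at 0.98 and 2.20, PTX3 at 1.84 and 0.51, and CEMIP2 at -0.09 and -0.08.

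IR was tested within each line. The rule for the members names the knockout and not IR, although the genes were chosen with earlier results of these data known. HMMR was the 1 member of 10 called in RBM6-KO1 cells, where 3.11% of 15598 genes were called and 1.97% were called lower. It fell from 47.5 and 47.9 to 25.1 and 16.2 normalized CPM, a log2 change of -1.22 (SE 0.22, edgeR's quasi-likelihood test, Benjamini-Hochberg adjusted p = 0.0204). Without replicate B of irradiated RBM6-KO1 cells the change was -0.93, short of 2-fold, with an adjusted p of 0.0127, and over all alternatives the adjusted p ran from 2.77e-07 to 0.0342. In control cells, HMMR went from 34.6 and 20.2 to 14.9 and 16.9, with a log2 change of -0.79 (SE 0.26) and an adjusted p of 0.0955. The groups did not overlap in either line, and the difference between the lines was not past the threshold (interaction log2 -0.43, SE 0.38, adjusted p = 1).

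In control cells none of the 10 genes was called, where 3.59% of 15412 genes were. By the adjusted p alone 1 of 10 passed, CEMIP2, where 5.72% of genes did, and 5 of 10 had an unadjusted p under 0.05, where 25.4% of genes did. In RBM6-KO1 cells 6 of 10 had one, where 29.6% of genes did. DESeq2's test called none of the 10 in control cells either. The libraries before and after IR did not overlap for 8 of the 10 in control cells (57.1% of all genes) and for 9 of the 10 in RBM6-KO1 cells (62.1%), so lack of overlap was common to most genes in these comparisons. The median log2 change of the 10 was 0.41 in control and 0.58 in RBM6-KO1 cells, against 0.02 and -0.01 over all genes.

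CEMIP2 rose in control cells from 30.9 and 23.1 to 42.4 and 57.3 normalized CPM, a log2 change of 0.88 (SE 0.22, adjusted p = 0.042) that was under 2-fold. In RBM6-KO1 cells it went from 30.6 and 20.3 to 39.0 and 55.0, with a log2 change of 0.86 (SE 0.24) and an adjusted p of 0.0597. The changes in the 2 lines were close to each other (interaction log2 -0.01, SE 0.36). Over the alternatives its adjusted p in control cells ran from 1.63e-05 to 0.396, and it was 2-fold and called without replicate A of irradiated control cells (log2 1.09). CD44 gave log2 changes of 0.42 (SE 0.16, adjusted p = 0.14) and 0.51 (SE 0.16, adjusted p = 0.0766) in control and RBM6-KO1 cells.

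CEMIP2 and CD44 have the longest exon sequence of the 10 genes, 9254 and 9992 bases, and the IR changes moved with exon length. Over all genes, the log2 change after IR correlated with exon length at a Spearman rho of 0.288 in control cells (15309 genes) and 0.271 in RBM6-KO1 cells (15489 genes), which describes genes and not replicates. Between RBM6-KO1 and control cells, rho was 0.00847 untreated and 0.00268 after IR. Between replicates A and B of a group it ran from -0.221 to 0.381. With the length trend subtracted, CEMIP2 stood at 0.73 and 0.74 in control and RBM6-KO1 cells, CD44 at 0.26 and 0.38, and HMMR at -0.80 and -1.25. The part of exon length in the results was not tested.

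HAS3 and HAS2 gave IR changes in the same direction in both lines without passing the threshold. HAS3 had log2 changes of 0.63 (SE 0.23, adjusted p = 0.122) in control and 0.68 (SE 0.25, adjusted p = 0.113) in RBM6-KO1 cells. HAS2 had 0.85 (SE 0.43, adjusted p = 0.235) and 0.60 (SE 0.39, adjusted p = 0.326). Among the breakdown genes, HYAL2 had 0.03 (SE 0.18, adjusted p = 0.944) and 0.20 (SE 0.17, adjusted p = 0.453), and HYAL3 had 0.41 (SE 0.28, adjusted p = 0.378) and 0.55 (SE 0.25, adjusted p = 0.176). CEMIP overlapped before and after IR in both lines, with 0.04 (SE 0.33, adjusted p = 0.96) in control and 0.73 (SE 0.68, adjusted p = 0.493) in RBM6-KO1 cells, the latter on 5 to 24 counts a library.

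TNFAIP6 and PTX3 were the 2 members whose libraries moved in opposite directions in the 2 lines. TNFAIP6 was lower after IR in control cells (log2 -0.57, SE 0.27, adjusted p = 0.21) and higher after IR in RBM6-KO1 cells (0.63, SE 0.21, adjusted p = 0.0868). PTX3 was higher after IR in control cells (0.80, SE 0.34, adjusted p = 0.168) and lower in RBM6-KO1 cells (-0.55, SE 0.23, adjusted p = 0.14). None of these 4 changes passed the threshold. By edgeR's quasi-likelihood test, the difference in IR response between the lines was 1.20 (SE 0.34) for TNFAIP6 and -1.35 (SE 0.37) for PTX3. Their unadjusted p was 0.00516 and 0.00394, and both had an adjusted p of 1 over 16549 genes. The other 8 members had differences between -0.43 (HMMR) and 0.70 (CEMIP), also with an adjusted p of 1. No gene passed this test of the difference (0 of 16549, also 0 with DESeq2, percent called 0), and 306 genes or 1.85% had an unadjusted p under 0.05. Opposite responses without overlap in either line were seen in 1.28% of 14866 genes.

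**Figure D4:**
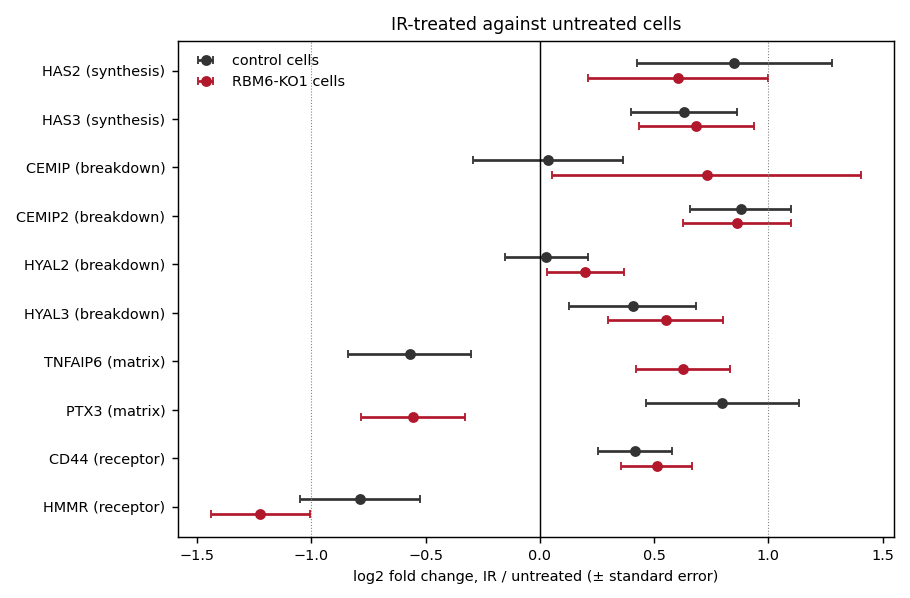
Log2 fold change of irradiated over untreated cells (x axis, with standard error bars) for each of the 10 genes, in control and RBM6-KO1 cells, from 2 libraries a group, with dotted lines at a 2-fold change. HMMR lies at -0.79 and -1.22, CEMIP2 at 0.88 and 0.86, and TNFAIP6 (-0.57 and 0.63) and PTX3 (0.80 and -0.55) lie on opposite sides of 0.

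The rest of the pathway was followed through listed genes that are not among the 10. For this and the lists below, the share of all genes called after IR was 3.59% in control and 3.11% in RBM6-KO1 cells. Between the lines the share was 3.12% untreated and 1.17% after IR. Of 9 genes for the third synthase and for the sugar precursors, all 9 were tested and none was called after IR in either line. UGP2, which makes UDP-glucose, was at 203 and 151 normalized CPM in untreated control libraries and 441 and 393 in untreated RBM6-KO1 libraries, and at 190 and 179 against 414 and 427 after IR. Every knockout library was above every control library (log2 1.23, SE 0.16, and 1.20, SE 0.14). GFPT2, an enzyme at the entry of the hexosamine pathway, was at 226 and 207 in irradiated control libraries and 440 and 471 in irradiated RBM6-KO1 libraries (log2 1.08, SE 0.15), and at 0.80 on the log2 scale untreated. The median log2 difference of the 9 was 0.23 untreated and 0.35 after IR, with 7 and 9 of 9 above 0.

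Of 6 other breakdown genes, 4 were tested, and none was called or 2-fold different in any comparison. Their log2 differences between the lines lay below 0 for 4 of 4 in both conditions, with medians of -0.22 and -0.17. Of 14 other matrix genes, 3 or 4 passed the filter in each comparison and none was called. Between the lines, 3 of 4 lay below 0 untreated (median log2 -0.40) and 3 of 3 after IR (median -0.18). Of 6 other receptors, 2 were tested. The one named is TLR2, a receptor of innate immunity, at 8.66 and 7.35 normalized CPM in untreated control and 2.87 and 2.86 in untreated RBM6-KO1 libraries, and at 6.41 and 9.34 against 1.86 and 1.67 after IR (log2 -1.49, SE 0.27, and -2.16, SE 0.31). It was not called after IR in either line.

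Partners of the receptors were counted in the same way. Of 8 genes that link CD44 to the cytoskeleton or cut it, 8 were tested and none was called after IR. MMP9, a secreted protease, was lower in untreated RBM6-KO1 libraries, at 1.29 and 1.02 against 2.70 and 3.81 normalized CPM (log2 -1.49, SE 0.38). The untreated libraries held 15 to 71 counts of MMP9, and the difference ran from -1.72 to -1.21 over the alternatives. After IR the lines overlapped for MMP9 (log2 -0.35, SE 0.36). Of 7 spindle partners of HMMR, 1 was called after IR in each line, PLK1, a mitotic kinase. Over all genes, 3.59% were called in control and 3.11% in RBM6-KO1 cells. PLK1 fell from 141 and 129 to 62.4 and 54.0 normalized CPM in control cells (log2 -1.23, SE 0.17, adjusted p = 0.00388) and from 121 and 134 to 51.3 and 44.5 in RBM6-KO1 cells (log2 -1.43, SE 0.16, adjusted p = 0.00373). The median change of the 7 was -0.05 in control and -0.64 in RBM6-KO1 cells, against 0.02 and -0.01 over all genes.

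TNFAIP6 and PTX3 are known as genes induced by TNF and interleukin-1, and 18 other such genes were listed, of which 17 matched by symbol and 14 were tested. None was called after IR in control cells, where 3.59% of all genes were, and 2 were called in RBM6-KO1 cells, where 3.11% were. In RBM6-KO1 cells CXCL8, a neutrophil chemokine, rose from 675 and 440 to 1014 and 1504 normalized CPM (log2 1.16, SE 0.24, adjusted p = 0.0307), and PTGS2, the inducible cyclooxygenase, rose from 8.50 and 8.44 to 14.0 and 24.2 (log2 1.16, SE 0.27, adjusted p = 0.0426). Without replicate B of irradiated RBM6-KO1 cells these changes were 0.86 and 0.72, under 2-fold. With all 8 libraries in 1 fit the adjusted p for PTGS2 was 0.0602 (log2 1.17), so it was not called. CXCL8 stood at 0.89 when untreated knockout replicate B was left out. The median change of the 14 was 0.16 in control and 0.46 in RBM6-KO1 cells.

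Between the lines, the chemokines CXCL2 (log2 1.16, SE 0.16, untreated and 1.32, SE 0.16, after IR) and CXCL3 (1.24, SE 0.15, and 1.51, SE 0.17) were higher in RBM6-KO1 cells in both conditions. After IR, CXCL1 (1.15, SE 0.14), CCL20 (1.18, SE 0.15) and CXCL8 (1.34) also differed over 2-fold without overlap, as 6.31% of all genes did untreated and 5.56% after IR. PTGS2 was lower in RBM6-KO1 cells, by a log2 difference of -1.54 (SE 0.21) untreated and -1.09 after IR, the latter between -1.54 and -0.60 over the alternatives. The median of the 14 was 0.35 untreated and 0.43 after IR, and 9 and 11 of 14 lay above 0.

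**Figure D5:**
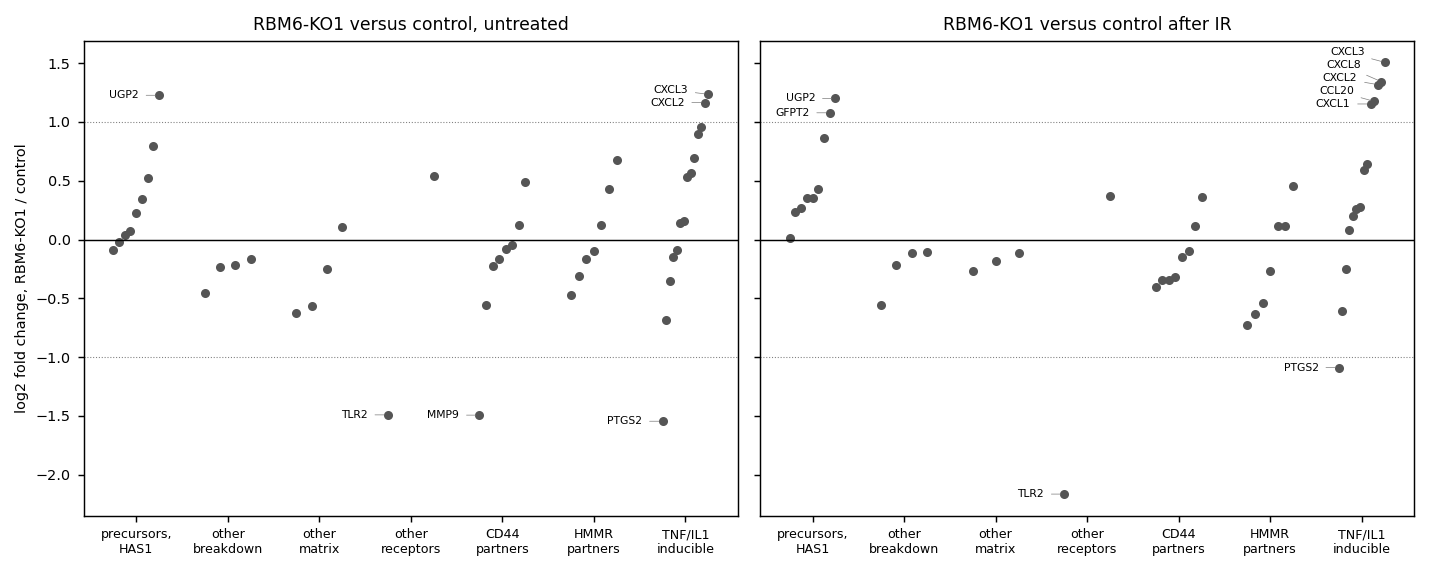
Log2 fold change of RBM6-KO1 over control cells (y axis) for the listed genes tested, 1 point a gene, in 7 lists, untreated (left) and after IR (right), with dotted lines at a 2-fold change. Named points differ over 2-fold with groups that do not overlap, and they lie on both sides of 0, with CXCL3 at 1.24 and 1.51, UGP2 at 1.23 and 1.20, TLR2 at -1.49 and -2.16 and PTGS2 at -1.54 and -1.09.

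The genes most like CEMIP and HMMR over the 8 libraries were found by Pearson's r of log2 levels among 13736 genes with a mean of at least 1 CPM. For CEMIP they were SCD, the stearoyl-CoA desaturase (r = 0.995), NUP210, a nuclear pore protein (0.994), and MAP3K9, a kinase (0.992). For HMMR they were ENSG00000272750 (0.985), SMC2, a condensin subunit (0.984), and PPP1R12A, a myosin phosphatase subunit (0.982). These values describe 8 points that share 4 groups, so that for CEMIP they mostly follow the split between the lines.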

How the data were processed

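RNA-seq was performed on poly(A)-selected libraries (TruSeq mRNA kit, Illumina paired-end reads) from 8 samples. The authors deposited whole-number counts per Ensembl gene without normalization. The submitters' processing notes name STAR, DESeq2 and hg38. The counting tool, the annotation version and the strandedness are not given in the sources used here, so reads of overlapping genes on opposite strands cannot be told apart. All 8 columns were used and 0 were left out.

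Identifiers were matched to GENCODE release 44, which held 57392 of 58233. The counts were tested with edgeR 4.0.16 in R 4.3.3 (TMM, filterByExpr, quasi-likelihood test), each comparison on its own 4 libraries and the interaction on all 8. A call needed a Benjamini-Hochberg adjusted p under 0.05 and at least a 2-fold change, and for the interaction the adjusted p alone. The standard error was the size of the log2 fold change divided by the square root of F. CPM were computed from the counts with TMM library sizes, and CPM per kb used merged exon length. Correlations used log2 of CPM plus 0.5. The fit and the call were tested on simulated counts with known changes, and the other steps were not.

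The 10 members, the 13 gene lists and the rule for named genes were chosen with earlier results of these data known. Genes named from the pathway and neighbour lists are those called after IR, or at least 2-fold different between lines without overlap. HAS1 was named in addition, as the synthase outside the 10. The rule does not cover the marker lists, whose named genes were chosen after their values were seen. Alternatives were other scalings, filters and samples in the fit, DESeq2 1.42.0, a replicate block, leaving out each library and, chosen after seeing the data, removal of the exon length trend and the same settings for list genes. Floors of 3 counts cover counting error only.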

Additional observations from a re-analysis of the deposited data

Results flagged for a closer look

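TNFAIP6 and PTX3 drew attention because the 2 irradiated libraries moved 1 way in control cells and the other way in RBM6-KO1 cells, with no overlap in either line. Of 14866 genes tested in both lines, 191 (1.28%) did so. For TNFAIP6, the difference in IR response (RBM6-KO1 minus control) was 1.20 on the log2 scale (SE 0.34). Its unadjusted p was 0.00516 and its adjusted p was 1 by edgeR's quasi-likelihood test. Over the alternatives it ran from 0.93 to 1.53, with an adjusted p between 0.678 and 1. For PTX3 the difference was -1.35 (SE 0.37, unadjusted p = 0.00394, adjusted p = 1), and it ran from -1.69 to -1.06 over the alternatives. Both genes fail the correction for the number of genes tested.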

How the results depend on the processing

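With 2 libraries a group, counts of calls moved with single libraries. Leaving out 1 library gave 287 (without untreated control replicate B) to 1406 (without irradiated control replicate A) genes for IR in control cells, against 553, with 0 to 1 members called. For IR in RBM6-KO1 cells it gave 289 to 1563 genes against 485, with 300 without untreated replicate B, 1199 without untreated replicate A, 1563 without irradiated replicate A and 289 without irradiated replicate B. In these, 0 to 3 members were called, CEMIP2 joining HMMR without irradiated replicate A (log2 1.11), CEMIP2 and HAS3 without untreated replicate A (1.21 and 1.10), and HMMR lost without irradiated replicate B. Between untreated lines 2 to 4 members were called (4 without untreated control replicate A), and after IR 169 to 477 genes against 182 (406 without irradiated control replicate A, 477 without replicate B). Where 1 library was left in a group, it was assumed to vary like the others.

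Without a filter, 962, 1011 and 506 genes were called for IR in control cells, IR in RBM6-KO1 cells and the lines after IR, and 1 for the interaction. By adjusted p alone, 881, 884 and 952 genes were called for IR in control, IR in RBM6-KO1 and the untreated lines, with 1 member in the first and 5 in the last. With at least 10 counts in every library, CEMIP left the fits that hold knockout libraries, so 1 member was called in each comparison of the lines, and 71 genes after IR. After IR the lines gave 319 genes with DESeq2 and 340 with all 8 libraries in 1 fit. The labels do not say that a replicate letter is shared between groups. Differences between B and A correlated at 0.476 between the irradiated groups and 0.122 between the untreated groups, and from -0.377 to -0.145 across treatments, a hint from the data and not the design. A replicate block gave 541 genes for the lines after IR and changed no member's call.

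Of 388 log2 values of the members under alternatives for IR and the interaction, 357 kept direction and call, 26 turned in sign, 4 gained a call and 1 lost it. Between the lines 225 of 238 kept both, 9 turned in sign and 4 gained a call, all 4 untreated with 1 library left out (TNFAIP6 in 2, HAS3 and HMMR in 1 each). The 9 were HAS2 untreated (-0.0778 to 0.79), CEMIP2 (-0.44 to 0.18 untreated, -0.36 to 0.15 after IR) and HYAL3 (-0.37 to 0.0368 and -0.16 to 0.13). The IR change in control cells turned to -0.0199 for CEMIP and -0.0178 for HYAL2 with upper quartile scaling, to -0.00169 for CEMIP with the replicate block, and to -0.0787 and -0.0110 for CEMIP and HYAL2 with the length trend removed. It ran from -0.58 to 0.50 for CEMIP and from -0.00707 to 0.0714 for HYAL2 when leaving out libraries, and from -0.34 to 1.35 for CEMIP in RBM6-KO1 cells. The interaction ran from -0.73 to 0.14 for HAS2, -0.25 to 0.47 for HAS3, -0.40 to 1.34 for CEMIP, -0.28 to 0.33 for CEMIP2, -0.0590 to 0.34 for HYAL3 and -0.0265 to 0.25 for CD44, and was 0.0186 for CEMIP2 with the length trend removed. None of the values that turned was past the threshold, and the cause was not tested.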
